A study of Homo sapiens with 4 samples.

Results

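The EGF receptor family and its ligands were read from 4 Affymetrix arrays of UM1 cells, an established line of human tongue squamous cell carcinoma. The 10 members, EGFR, ERBB2, ERBB3, ERBB4, AREG, EREG, HBEGF, TGFA, BTC and EPGN, were chosen by name, and a probe set was counted for a member where the array's annotation pairs it with that gene alone. In this way 39 probe sets were found for 9 members among 18132 measured genes. The annotation used here pairs no probe set with AREG alone, and AREG was therefore not analysed here. The cells were cultured for 7 days in 16.7 mM glucose (high glucose, n = 2 arrays) or in 5.6 mM glucose (normal glucose, called low glucose in the sample titles, n = 2 arrays). The cells carried no other agent or alteration in the labels, all came from this 1 line, and the arrays of a group are labelled as biological replicates. Values are log2 levels per probe set from RMA, which corrects the background and normalises the arrays to each other. Each gene is represented by its brightest probe set over the 4 arrays. Apart from this choice and the summed levels of marker lists, levels of different probe sets were not compared with each other.

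The receptors are tyrosine kinases of the cell surface that pair with each other after a ligand binds. EGFR binds TGFA, HBEGF, EREG, AREG, BTC and EPGN as well as EGF, ERBB2 has no ligand of its own, ERBB3 has little kinase activity and depends on its partner, and ERBB4 binds neuregulins and some EGFR ligands. The ligands are made as membrane precursors that surface proteases release, and the receptors signal through the RAS-ERK and PI3K-AKT kinases. In squamous epithelium this system is known for driving the growth and migration of keratinocytes, and EGFR is often abundant in squamous carcinomas of the head and neck.

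High glucose was compared with normal glucose for every gene in a limma fit, with Benjamini-Hochberg adjustment over all genes. At an adjusted p under 0.05, the level of EGFR in high glucose was lower by a factor of 1.88, that of its ligand EREG by 2.16 and that of its ligand HBEGF by 5.94. TGFA, another EGFR ligand, was 1.78-fold higher, and the partner receptors ERBB3 and ERBB2 were 1.41-fold and 1.25-fold higher. BTC and EPGN did not pass, and ERBB4 was dim on every array. Thus 3 of the 9 measured members were higher and 3 were lower, where 15.5% of all genes were higher and 22.2% were lower, and 37.7% were called in either direction. The arrays of the groups did not overlap for the same 6 members, as they did not for 64.8% of all genes. The median log2 difference of the 9 members was -0.05, against -0.03 over all genes. A two-sided exact permutation test of 2 arrays against 2 cannot give a p under 0.333, so the calls depend on the variance that limma pools across genes. The labels do not say how the biological replicates were separated, so the p-values measure the spread between these arrays, which may be technical. In bulk RNA, fewer cells of a type and less RNA per cell cannot be told apart.

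**Figure D1:**
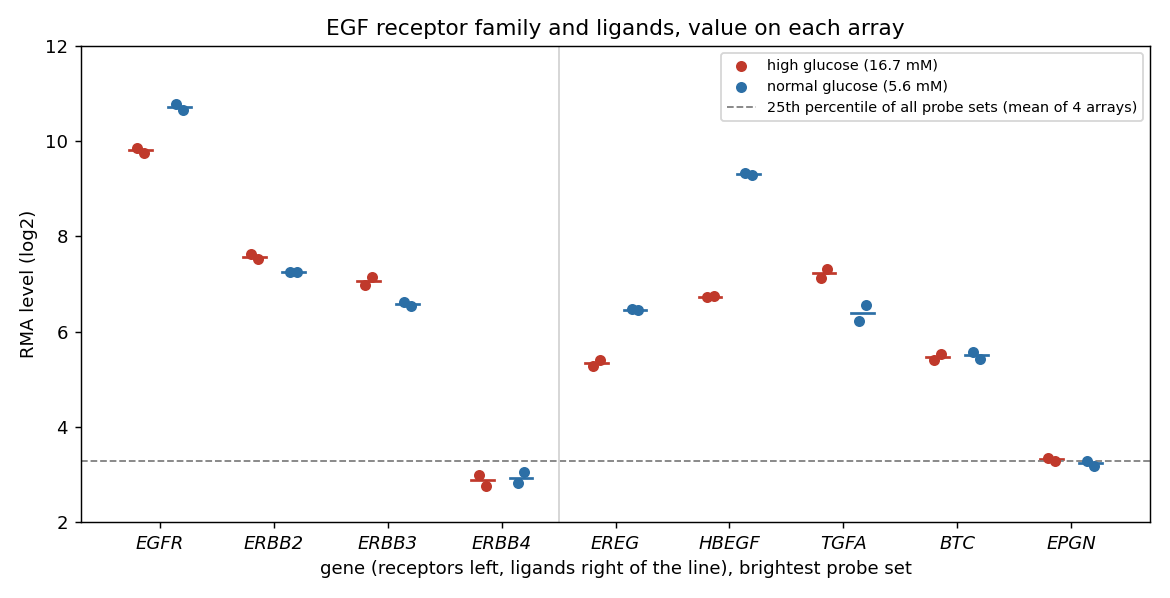
Log2 RMA level (vertical axis) of the brightest probe set of each measured receptor and ligand (horizontal axis) on each array, with high glucose (red) left of normal glucose (blue), lines at the group means and a dashed line at the mean 25th percentile of the arrays. EGFR, EREG and HBEGF lie lower and ERBB2, ERBB3 and TGFA higher in high glucose without overlap, and ERBB4 lies under the dashed line on all 4 arrays.

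The arrays had medians of 5.05 to 5.07 in high glucose and 5.01 to 5.02 in normal glucose, which the normalisation in RMA makes alike. Replicate arrays correlated at r = 0.996 to 0.997 across probe sets, and arrays of different groups at r = 0.946 to 0.947 (probe sets are not independent replicates). For the beta-actin control, the log2 level at the 3' end minus that at the 5' end was 0.35 and 0.42 in high glucose and 0.71 and 0.74 in normal glucose. For the GAPDH control it was 0.080 and 0.123 in high glucose and 0.240 and 0.135 in normal glucose. Of the squamous epithelial markers, 11 of 15 had a probe set of their own, and all 11 were higher in high glucose, where 15.5% of all genes were higher. Their summed linear levels were 49923 to 51890 in high glucose and 6338 to 6676 in normal glucose. Of 12 fibroblast markers, 5 were higher, none was lower and 7 did not pass. The 41.7% called were thus all higher, where 15.5% of all genes were higher and 37.7% were called in either direction. The higher markers were COL3A1 (131-fold), FAP (62.6-fold), COL1A1 (5.86-fold), FBLN1 (2.40-fold) and COL1A2 (at least 1.63-fold, as normal glucose was at or under the 25th percentile). PDGFRA, LUM, THY1 and POSTN lay at or under the 25th percentile on every array. The summed linear levels of the 12 were 12548 to 12632 in high glucose and 276 to 301 in normal glucose. The sum in high glucose was mostly that of COL3A1 alone, which had 13.46 and 13.45 in high glucose, against 6.44 and 6.41 in normal glucose (log2 level). Of 9 endothelial and leukocyte markers 1 was higher (TEK) and none was lower, which is 11.1% called. Their sums were 171 to 182 in high glucose and 157 to 166 in normal glucose. The leukocyte gene PTPRC lay at or under the 25th percentile on every array. The squamous markers, the 5 fibroblast markers, TEK and the actin control differed between the groups, and their part in the results on the receptors and ligands was not tested.

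The promoters of the 3 members that were lower are shown so that their sequences can be compared. The RefSeq table (GRCh38.p14) holds a promoter, from 250 bases before to 50 bases after a start, for 5 of the 6 called members, all but ERBB3. The sequences run 5′ to 3′ on the gene's strand, and capitals mark matches, on both strands, to the motifs AP-1 (TGANTCA), CRE (TGACGTCA), the core bound by ATF4 (TGATGNAA), the core bound by HIF (ACGTG) and the antioxidant element (TGACNNNGC). The lines give HBEGF at chr5:140346554-140346853 (minus strand), EREG at chr4:74364895-74365194 (plus strand), EGFR at chr7:55018767-55019066 (plus strand) and a start further downstream in EGFR at chr7:55109589-55109888 (plus strand).
HBEGF: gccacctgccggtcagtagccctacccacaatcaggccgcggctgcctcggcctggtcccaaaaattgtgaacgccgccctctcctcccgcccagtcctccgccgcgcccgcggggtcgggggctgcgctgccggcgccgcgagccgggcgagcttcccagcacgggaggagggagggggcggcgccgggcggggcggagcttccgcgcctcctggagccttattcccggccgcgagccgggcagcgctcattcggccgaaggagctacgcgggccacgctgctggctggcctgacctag
EREG: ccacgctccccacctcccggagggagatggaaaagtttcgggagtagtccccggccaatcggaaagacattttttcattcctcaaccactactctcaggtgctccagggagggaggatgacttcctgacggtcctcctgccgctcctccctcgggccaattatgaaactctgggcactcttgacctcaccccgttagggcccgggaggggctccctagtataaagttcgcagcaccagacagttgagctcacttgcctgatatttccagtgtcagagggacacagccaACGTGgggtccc
EGFR: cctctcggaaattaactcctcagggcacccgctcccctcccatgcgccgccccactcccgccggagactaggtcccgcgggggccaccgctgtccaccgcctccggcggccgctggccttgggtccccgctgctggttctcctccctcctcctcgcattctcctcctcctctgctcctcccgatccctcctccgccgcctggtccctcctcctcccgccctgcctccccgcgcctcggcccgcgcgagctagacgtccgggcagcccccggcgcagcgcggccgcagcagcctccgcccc
EGFR, downstream start: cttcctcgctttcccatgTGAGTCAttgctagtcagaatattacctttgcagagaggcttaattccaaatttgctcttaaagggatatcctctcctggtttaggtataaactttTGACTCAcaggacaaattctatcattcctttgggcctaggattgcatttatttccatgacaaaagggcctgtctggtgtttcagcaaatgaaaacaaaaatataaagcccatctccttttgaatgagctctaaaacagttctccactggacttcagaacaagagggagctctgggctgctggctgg
HBEGF and the outer start of EGFR held none of these letters in this window. EREG held the HIF core at positions 39 to 43 after its start. The downstream start of EGFR held AP-1 matches at positions -232 to -226 and -136 to -130, and ERBB2 held an AP-1 match at positions -222 to -216. No match was found in either promoter of TGFA. Over all 35116 promoters of this length, AP-1 was found in 7.71%, CRE in 1.85%, the ATF4 core in 3.62%, the HIF core in 21.4% and the antioxidant element in 13.4%. The AP-1 letters read the same on both strands, and no match overlapped that of another motif.

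Among the receptors, EGFR was the one that was lower in high glucose. Its brightest probe set had 9.86 and 9.76 in high glucose, against 10.78 and 10.66 in normal glucose (log2 level). The log2 difference was -0.91 (SE 0.0947, n = 2 and 2 arrays, limma adjusted p = 0.00082), a fold of 0.533 with a 95% interval of 0.453 to 0.627. Each high glucose array thus lay lower than each normal glucose array. EGFR was read by 8 probe sets, of which 6 were lower in high glucose (factors of 1.51 to 1.88) when every probe set was tested. One of the probe sets built on the record of the full-length transcript had 7.55 and 7.42 in high glucose, against 8.31 and 8.34 in normal glucose, and was lower by a factor of 1.78 (adjusted p = 0.00129 from limma over all probe sets). The smallest of the 6 differences was that of a probe set built on a short transcript, with 7.23 and 7.24 in high glucose and 7.88 and 7.77 in normal glucose. The other 2 probe sets were dim, that is, on each array no brighter than its 25th percentile, and give no fold. The 6 probe sets above that level therefore all had the same direction. Over all 39 probe sets of the members, 6 were higher and 11 were lower, where 15.1% of all probe sets were higher, 20.4% were lower and 35.5% were called in either direction.

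ERBB2, the partner that other receptors of the family prefer, was slightly higher in high glucose. Its brightest probe set had 7.62 and 7.52 in high glucose, against 7.25 and 7.25 in normal glucose. The difference of 0.32 passed the threshold (log2 difference, SE 0.0877, n = 2 and 2 arrays, limma adjusted p = 0.0345), but not when any array was left out (adjusted p between 0.0745 and 0.148 from limma) or with the replicate number as a block (adjusted p = 0.0623 from limma). Of its 5 probe sets, 2 were called higher, at 1.25-fold and 1.30-fold, while those at 1.21-fold (adjusted p = 0.105 from limma over all probe sets) and 1.06-fold did not pass, and the dimmest was dim on every array.

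ERBB3, which passes signals to PI3K when paired with an active partner, had 6.99 and 7.16 in high glucose, against 6.61 and 6.54 in normal glucose. The high glucose arrays lay above the normal glucose arrays by 0.49 on the log2 scale (SE 0.0981, n = 2 and 2 arrays, limma adjusted p = 0.0101). This probe set carries the suffix _x_at and belongs to a type that can also bind transcripts of other genes. The probe set built on the record of a short transcript of ERBB3 had 5.29 and 5.28 in high glucose, against 5.31 and 5.29 in normal glucose, a difference of -0.02. The remaining probe set had 3.34 and 3.64 in high glucose, against 3.21 and 3.11 in normal glucose, where both arrays lay at or under the 25th percentile, and it did not pass (adjusted p = 0.0979 from limma over all probe sets). The higher level of ERBB3 thus rested on 1 of its 3 probe sets, and its call ended without high glucose replicate 2 (adjusted p = 0.0655 from limma), without normal glucose replicate 1 (0.0556) and without normal glucose replicate 2 (0.0767).

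ERBB4 was near the array background throughout. Its brightest probe set had 2.99 and 2.77 in high glucose and 2.83 and 3.05 in normal glucose, and all 3 of its probe sets lay at or under the 25th percentile on every array, between 2.68 and 3.05. No fold is given for it.

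**Figure D2:**
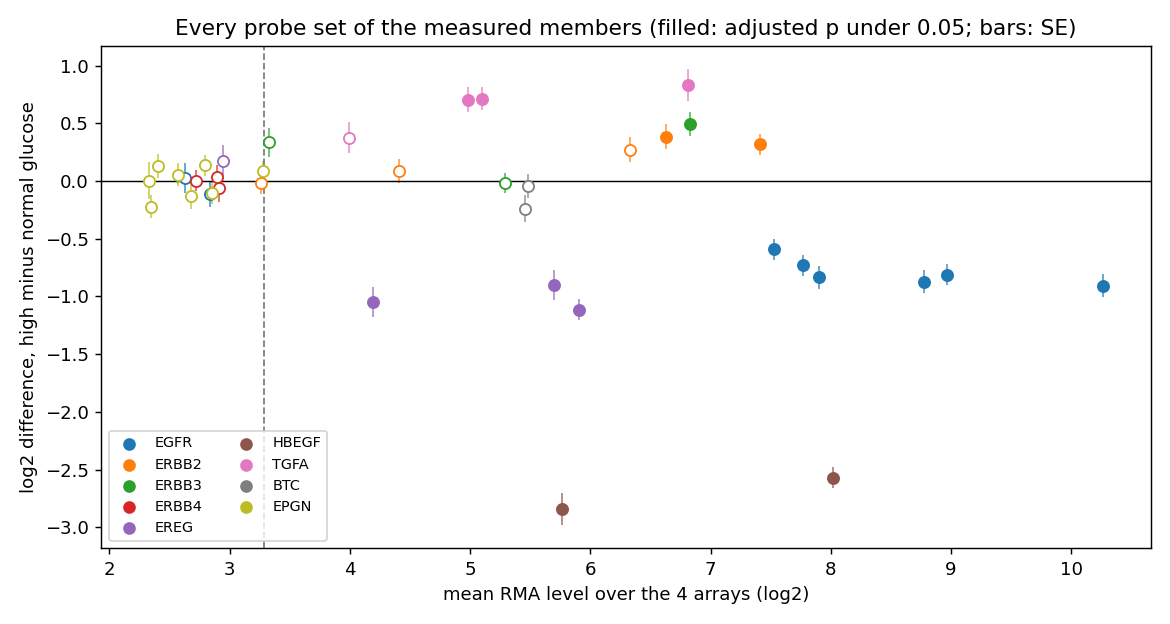
Log2 difference of high minus normal glucose (vertical axis, bars are SE from limma) against the mean log2 level over the 4 arrays (horizontal axis) for the 39 probe sets of the measured members, filled where the adjusted p over all probe sets is under 0.05. The dashed line is the mean 25th percentile of the arrays, and the 6 called probe sets of EGFR, 3 of EREG and 2 of HBEGF lie under zero while 3 of TGFA lie above it.

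Of the ligands, HBEGF showed the largest difference of any member. HBEGF, a heparin-binding growth factor that keratinocytes make at wound edges, had 6.74 and 6.74 in high glucose, against 9.34 and 9.28 in normal glucose. The difference was -2.57 on the log2 scale (SE 0.0838, n = 2 and 2 arrays, limma adjusted p = 1.4e-05), and HBEGF stood at rank 95 among the falls of the 18132 genes. Both of its probe sets were lower. The dimmer one had 4.16 and 4.53 in high glucose, against 7.18 and 7.20 in normal glucose, and was lower by a factor of 7.18. The groups were therefore far apart on either probe set, by more than the spread between arrays.

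EREG, epiregulin, which activates EGFR and ERBB4, had 5.29 and 5.41 in high glucose, against 6.48 and 6.45 in normal glucose. It was lower by 1.11 on the log2 scale (SE 0.0899, n = 2 and 2 arrays, limma adjusted p = 0.00031), a fold of 0.462 with a 95% interval of 0.396 to 0.539. Of its 4 probe sets, 3 were lower (factors of 1.87 to 2.16) and the other was dim on every array.

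TGFA, the transforming growth factor that epithelial tumours often make for themselves, went the other way. Its brightest probe set had 7.13 and 7.33 in high glucose, against 6.23 and 6.56 in normal glucose. The difference was 0.83 (log2 scale, SE 0.139, n = 2 and 2 arrays, limma adjusted p = 0.00516), a fold of 1.78 with a 95% interval of 1.40 to 2.26. The spread between normal glucose arrays was the widest among the called members, yet the groups did not overlap. All 4 probe sets had a higher mean in high glucose, from 1.30-fold to 1.78-fold, and 3 of them passed. Without high glucose replicate 2 the gene's adjusted p was 0.0579 from limma.

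BTC, betacellulin, had 5.40 and 5.52 in high glucose and 5.58 and 5.43 in normal glucose, so that the groups overlapped. Its fold was 0.969 with a 95% interval of 0.814 to 1.15 (adjusted p = 0.789 from limma), and its other probe set had 0.847-fold (adjusted p = 0.171 from limma over all probe sets). EPGN, epigen, had 3.35 and 3.29 in high glucose and 3.29 and 3.19 in normal glucose, and the other 7 of its 8 probe sets lay at or under the 25th percentile on every array. The brightest probe set of EPGN was also near the background, as the 25th percentiles of the arrays were 3.26 to 3.32. Normal glucose replicate 2 lay under that of its array, and the other arrays lay just above theirs. The fold of EPGN was 1.06 with a 95% interval of 0.908 to 1.23 (adjusted p = 0.545 from limma). At this level the fold says little about a change.

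**Figure D3:**
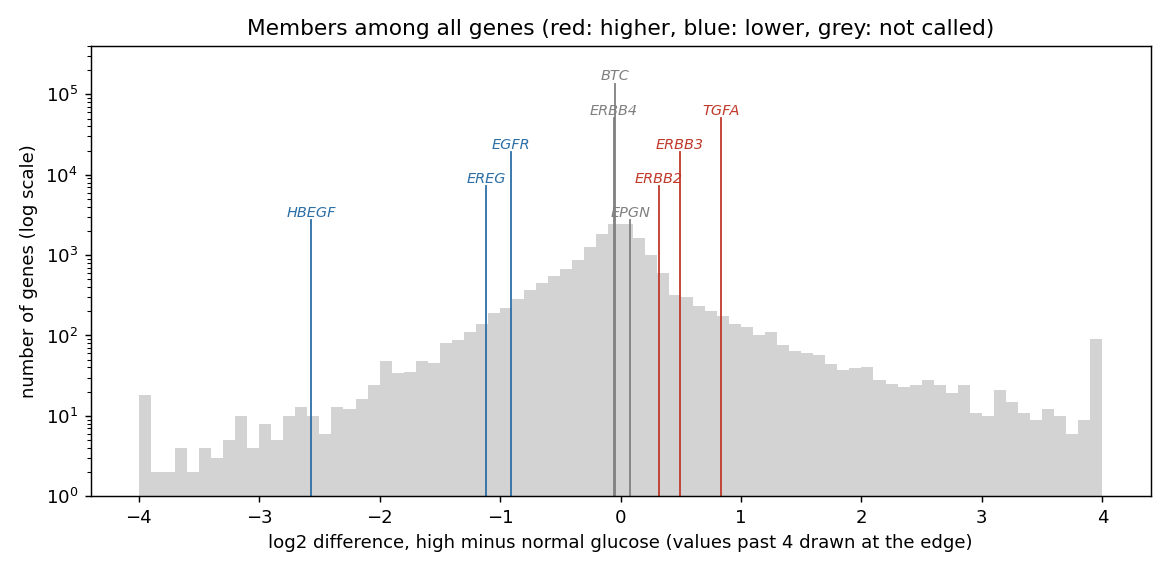
Number of genes (vertical axis, log scale) by log2 difference of high minus normal glucose (horizontal axis), with the 9 measured members marked at their own differences. HBEGF at -2.57, EREG at -1.11 and EGFR at -0.91 lie to the left and TGFA at 0.83 to the right, whereas BTC, ERBB4 and EPGN lie near the middle.

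Of 5 other ligands of these receptors, 2 were dim on every array. EGF itself had 3.49 and 3.88 in high glucose, against 2.87 and 2.91 in normal glucose, where both arrays lay at or under the 25th percentile. It was at least 1.32-fold higher (adjusted p = 0.00668 from limma), measured against that percentile. Without that bound, its 3 probe sets ranged from 1.07-fold to 1.89-fold. NRG4, a ligand of ERBB4, had 3.88 and 4.03 in high glucose, against 3.30 and 2.86 in normal glucose, and was 1.83-fold higher (adjusted p = 0.00765 from limma). In normal glucose, replicate 2 lay under the 25th percentile of its array and replicate 1 just above it, so this fold is imprecise. Only 1 of the 2 probe sets of NRG4 was not dim on every array. NRG1 lay above the 25th percentile on every array, on the brightest of its 8 probe sets. It had 5.87 and 6.02 in high glucose, against 6.11 and 6.55 in normal glucose. This fold of 0.766 did not pass (adjusted p = 0.119 from limma). Of the 5 ligands, EGF and NRG4 were thus higher, none was called lower and 3 did not pass, with a median log2 difference of 0.16. Over all genes, 15.5% were higher and 37.7% were called in either direction.

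Genes that release the ligands from the membrane moved in both directions. Of 9 such genes 3 were higher in high glucose, 2 were lower and 4 were not called, with a median log2 difference of 0.19. The share called was thus 55.6%, where 37.7% of all genes were called (15.5% higher and 22.2% lower). ADAM17, the main protease that sheds TGFA, HBEGF, EREG and AREG, had 8.36 and 8.20 in high glucose, against 9.44 and 9.47 in normal glucose, and was lower by a factor of 2.25 (adjusted p = 0.000312 from limma). Its 3 probe sets above the dim level all had a lower mean in high glucose (factors of 1.83 to 2.29). ADAM12, another metalloprotease, was 2.59-fold higher, although its 4 probe sets above that level ranged from 1.11-fold to 2.93-fold. RHBDL2, a rhomboid protease, was 2.09-fold higher.

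Genes listed as regulators of the receptors also split. Of 16 genes listed as inhibitors, phosphatases or ubiquitin ligases, 15 were measured. Of these, 5 were higher and 6 were lower, with a median log2 difference of -0.29. This is 73.3% called, beside 15.5% higher, 22.2% lower and 37.7% called over all genes. ERRFI1, which binds the EGFR kinase and blocks it and is itself induced by EGF signals, had 8.33 and 8.27 in high glucose, against 9.74 and 9.82 in normal glucose. It was lower by a factor of 2.79 (adjusted p = 9.7e-05 from limma). CBLB, a ubiquitin ligase that tags active EGFR, was lower by a factor of 2.37, with its 4 probe sets between 1.09 and 2.37. PTPRK, a phosphatase that acts on EGFR in keratinocytes, had 11.38 and 11.30 in high glucose, against 10.02 and 10.08 in normal glucose, and was 2.45-fold higher (adjusted p = 0.000159 from limma). Of 16 genes of receptor endocytosis and sorting, 3 were higher and 7 were lower (62.5% called, beside the same 37.7%), and the median was -0.12. SH3KBP1, an adaptor that binds CBL, TSG101, which sorts receptors for breakdown, and STAM2, which binds ubiquitin on them, were lower by factors of 1.98, 1.83 and 1.81. Their probe sets gave factors of 1.20 to 2.27 for SH3KBP1, 1.63 to 1.89 for TSG101 and 1.47 to 2.05 for STAM2.

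Downstream of the receptors, 6 of 21 measured adaptors and first effectors were higher and 7 were lower (median -0.16), which is 61.9% called against 37.7% of all genes. GRB7, an adaptor of ERBB2, had 5.34 and 5.41 in high glucose, against 6.74 and 6.79 in normal glucose, and was lower by a factor of 2.63. GAB2, a docking protein, was lower by a factor of 2.67, and PIK3CD, a catalytic subunit of PI3K, was 2.45-fold higher (adjusted p of these 3 genes at most 0.000618 from limma). PIK3CD was read by 4 probe sets, between 1.33-fold and 2.45-fold, and GRB7 by 2, with factors of 2.08 and 2.63. Of the RAS-ERK and AKT kinases and their regulators, 12 of 19 had a probe set of their own, and of these 2 were higher and 5 were lower (median -0.13, 58.3% called against 37.7% of all genes). RPS6KA2 and RPS6KA3, kinases that ERK activates, and MAP2K2, a kinase that activates ERK, were lower by factors of 1.94, 1.93 and 1.55. For RPS6KA3 the factors of its 2 probe sets were 1.93 and 6.65, and for the 4 of RPS6KA2 they ran between 1.29 and 4.71.

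Genes that ERK signals are known to induce were mainly lower in high glucose. Of 19 measured, 15 were lower, 1 was higher and 3 did not pass, against 22.2% lower and 15.5% higher over all genes. Like the other lists, this one was chosen with earlier results of these data known, so its count is not an independent test. Their median log2 difference was -1.15, against -0.03 over all genes. DUSP5, a phosphatase that inactivates ERK in the nucleus, had 4.87 and 4.95 in high glucose, against 9.76 and 9.55 in normal glucose, and was lower by a factor of 26.9 (adjusted p = 5.6e-06 from limma). ETV5, a transcription factor of the PEA3 group, had 5.45 and 5.16 in high glucose, against 9.73 and 9.35 in normal glucose, and was lower by a factor of 18.9, with its 4 probe sets between 5.88 and 19.5. SPRY4, which damps receptor signals to ERK, was lower by a factor of 7.97, with its 3 probe sets between 1.40 and 7.97. The gene that was higher was IER3, an early response gene, with 9.84 in high glucose and 9.46 in normal glucose on average (adjusted p = 0.0168 from limma), and its call ended when any array was left out. SPRY1, EGR3 and IER2 did not pass. Leaving out an array gave 12 to 14 lower genes in this list. HBEGF and EREG, which fell with these genes, are not on the list.

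**Figure D4:**
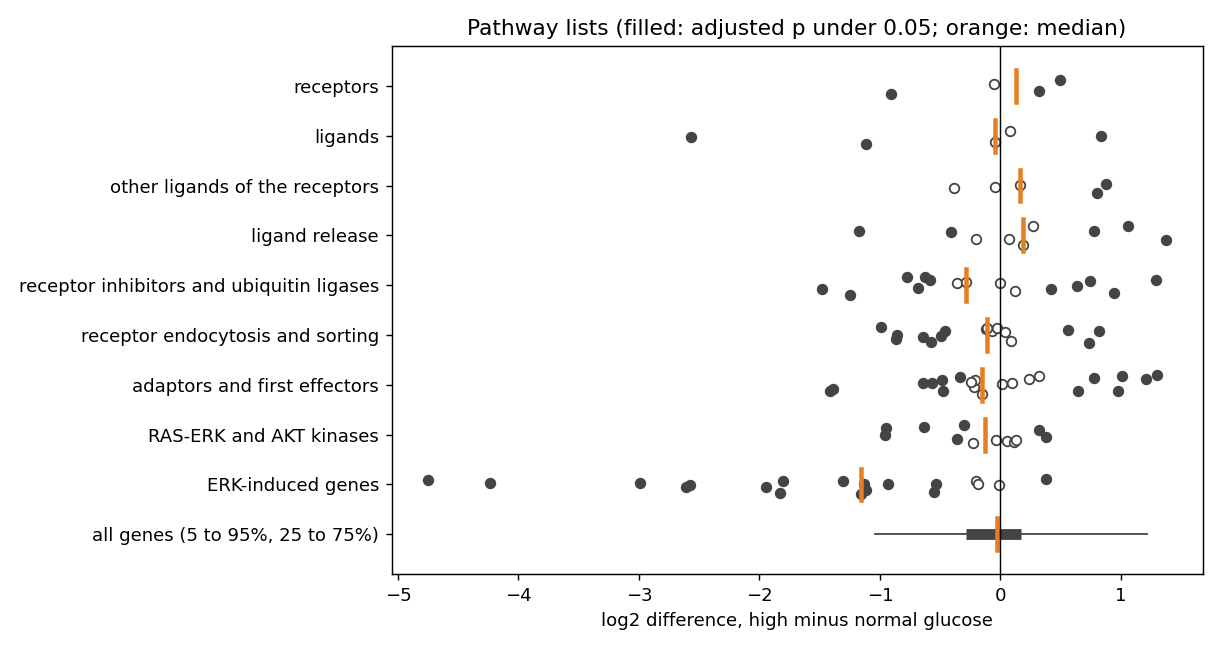
Log2 difference of high minus normal glucose (horizontal axis) for the measured genes of each list (rows), filled where the adjusted p is under 0.05, with the list's median in orange and, for all genes, a thick bar over the quartiles (-0.29 to 0.17) and a thin line from the 5th to the 95th percentile (-1.04 to 1.22). The ERK-induced genes have a median of -1.15, and the medians of the other lists plotted here lie between -0.29 and 0.19.

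The genes whose values were nearest to those of HBEGF over the 4 arrays, after each gene was centred on its mean, were PHLDA1, FOSL1 and HERPUD1, at Euclidean distances of 0.0654, 0.0710 and 0.0806 on the log2 scale. PHLDA1 and FOSL1 stand on the list of ERK-induced genes, and HERPUD1 acts in the unfolded protein response. PHLDA1 had 8.88 and 8.83 in high glucose, against 11.47 and 11.46 in normal glucose. The genes nearest to TGFA were SYNJ1, AUNIP and PAPSS2, at distances of 0.0616, 0.0790 and 0.0805. With 4 arrays in 2 groups, this nearness mostly reflects a like difference between the groups.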

How the data were processed

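RNA of UM1 cells was hybridised to 4 arrays, 2 per glucose level. According to the methods and the submitters' processing notes, GCOS read the scans and RMA corrected the background and normalised the arrays (the sources used here give no versions). The authors deposited the resulting log2 values for 49395 probe sets. These carry PrimeView identifiers, although the methods name another array type, and the PrimeView annotation was used. Of these, 44988 were annotated to 1 gene, 1832 to several, 2473 were not listed and 102 were controls. Controls were left out of all tests, and gene values used probe sets of 1 gene only.

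Groups were taken from the sample titles. The comparison of high with normal glucose was fitted in limma 3.58.1 (R 4.3.3) over the brightest probe set of 18132 genes, with Benjamini-Hochberg adjustment and a threshold of 0.05, and again over 49293 probe sets. A group was called dim for a probe set where each of its arrays lay at or under that array's 25th percentile, and a fold against a dim group is a lower bound at that percentile. Intervals are 95% intervals from limma. The procedure was run on simulated arrays with known changes in a small share of the genes. Only the mean size of those changes was required to come back, so this does not check the calls in these data. Python 3.11.15 with pandas 2.3.3 was used for the summaries. The number of arrays limits the precision.

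The text names all members, up to 3 called genes of each list with the largest difference, and the 3 genes nearest to the members with the largest fall and rise. The genes of chromosome 4 are named by their position, TEK and IER3 as the 1 called gene of their kind, SPRY1, EGR3 and IER2 as the 3 that did not pass, and the fibroblast genes and PTPRC as markers that were called or dim. These were chosen after their values were seen. The members and lists were chosen with earlier results of these data known.

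Alternatives changed 1 choice at a time, except the thresholds of the methods, which drop the adjustment and add a fold limit. They took the mean or the median-level probe set of a gene, dropped _x_at probe sets or dim genes, set a floor at the 25th percentile, quantile-normalised again, centred arrays on their medians, used limma-trend with robust eBayes, ran the methods' t-test, added the replicate number as a block, changed the threshold, tested single probe sets, or left out 1 array. Their use on the ERK-induced genes was added after seeing the data.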

Additional observations from a re-analysis of the deposited data

How the results depend on the processing

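The 3 members that were lower, EGFR, EREG and HBEGF, stayed lower with an adjusted p of at most 0.0481 from limma or the methods' t-test under all 14 alternative fits of each. Their log2 differences ranged from -0.97 to -0.61, from -1.17 to -0.72 and from -2.84 to -2.53. The count of 3 higher members was less stable. It was 1 with the probe set of median level, at an adjusted p under 0.01 and at the thresholds of the methods (unadjusted p under 0.05 and a fold over 1.5 or under 0.67), and 0 to 2 when 1 array was left out. It was 0 with the methods' t-test after adjustment and without high glucose replicate 2 in limma, where 3 higher members had an unadjusted p under 0.05 in both. ERBB2 lost its call in 8 of 14 fits, ERBB3 in 4 besides the reversals, and TGFA in 2. ERBB3 had a difference of -0.0187 with the probe set of median level and likewise without _x_at probe sets. Members that did not pass changed sign near zero. ERBB4 had 0.0364 with the probe set of median level, 0.0024 with the floor, and -0.168 to 0.0534 when 1 array was left out (0.0529 without high glucose replicate 2). BTC had -0.124 to 0.0337 when 1 array was left out (0.0179 without high glucose replicate 1), and EPGN had -0.0048 as the mean of its probe sets. Without dim genes, ERBB4 and EPGN were not tested. The cause of these changes was not tested, apart from the fewer arrays or other probe sets that the alternatives use.

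Over all genes, the methods' t-test called 1347 higher and 1667 lower, and the thresholds of the methods gave 2433 lower. Of the ERK-induced genes, 11 to 15 were lower under every alternative, and the 1 higher was 0 with the methods' t-test, at an adjusted p under 0.01, at the thresholds of the methods and without any array (limma), with 1 at an unadjusted p under 0.05 in the t-test and in each fit without an array. The replicate numbers are shared between the groups but did not pair the arrays (the deviations of same-numbered arrays correlated at -0.00457 over genes). With the replicate number as a block, 2529 genes were higher and 3592 lower, and of the members 2 and 3, with ERBB2 no longer called (adjusted p = 0.0623 from limma). In that fit 1 ERK-induced gene was higher and 14 were lower.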

Other observations

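EPGN, EREG, AREG and BTC are successive protein-coding genes on chromosome 4 in the order of the GRCh38.p14 gene table, and of these EREG alone passed the test, with AREG not analysed here. The genes next to this group, taken by their order, moved as follows. MTHFD2L, a mitochondrial folate enzyme beside EPGN, had 4.24 and 3.93 in high glucose, against 5.70 and 5.47 in normal glucose, and was lower by a factor of 2.83 (adjusted p = 0.000545 from limma). Beyond it, the chemokine CXCL2 had 4.20 and 5.12 in high glucose, against 7.64 and 7.48 in normal glucose, and was lower by a factor of 7.46 (adjusted p = 0.000673 from limma). The next gene, CXCL3, had 3.07 and 2.90 in high glucose, where both arrays lay at or under the 25th percentile. Against 3.53 and 3.36 in normal glucose, CXCL3 was lower by a factor of at least 1.11 (adjusted p = 0.0206 from limma). On the side of BTC, PARM1 had 1.22-fold and did not pass (adjusted p = 0.196 from limma). RCHY1, a ubiquitin ligase, was lower by a factor of 1.54 (adjusted p = 0.00486 from limma), and THAP6 beyond it did not pass (adjusted p = 0.352 from limma). The expression of EREG thus differed between the groups, as did that of MTHFD2L, CXCL2, CXCL3 and RCHY1, which were lower too. BTC, PARM1 and THAP6 gave no call, and AREG, which lies between EREG and BTC, was not analysed. EPGN gave no call either, but it lay near the 25th percentile, so its missing call says little.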
